A study of Mus musculus with 2 samples.

Results

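Serine, glycine, folate, methionine, proline and asparagine enzymes and the transaminases were examined in 2 libraries of mouse lung cancer cells, labelled as without *Runx3* and with *Runx3* restored. The 34 genes were taken by symbol from the 23183 genes with a deposited expression value, and all 34 were found. KPR- cells are an immortalized line from lung tumors of KPRL/F-TAM(-) mice. These mice carried 1 *K-Ras* LSL-G12D allele, floxed *p53* alleles, a flox and an FSF allele of *Runx3*, Tomato* and Flp ERT2, and had received *Ad-Cre*, an adenovirus in which the CMV promoter drives Cre. Cre turns on mutant *K-Ras* and removes *p53* and the flox allele of *Runx3*, so KPR- and KPR_restored cells share these changes. The FSF cassette keeps the other *Runx3* allele off until 4-hydroxytamoxifen (4-OHT) activates the Flp ERT2 recombinase, which removes it. The labels give RUNX3 -/- at 0 h for KPR- and RUNX3 -/+ at 16 h for KPR_restored, and list 1 μM 4-OHT for both, although in the study 4-OHT is what turns KPR- into KPR_restored cells. Both were grown in DMEM with 10% serum. Each condition was sequenced as 1 poly(A)-selected library, with no replicate and no library of 4-OHT-treated cells without the cassette, so *Runx3* restoration, 4-OHT and hours in culture cannot be told apart. No p-value is given, and a difference below is that between 2 libraries.

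Cells make serine from a glycolytic intermediate in the steps catalyzed by Phgdh, Psat1 and Psph. Serine then passes a carbon unit to folate, giving glycine, and folate carries the unit through parallel sets of enzymes in mitochondria and in the cytosol to purine, thymidylate and methionine synthesis. Methionine is activated to S-adenosylmethionine, the methyl donor of the cell, and homocysteine left from it can be turned into cysteine by transsulfuration. Asparagine, proline, alanine and aspartate are made from glutamate, glutamine and central carbon intermediates. Many of these enzymes are transcribed under Atf4, a transcription factor whose translation increases when amino acids are short or the endoplasmic reticulum is stressed.

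Values are FPKM, fragment numbers divided by transcript length and by depth, so levels of different genes can be compared. The difference of a gene is log2(FPKM + 0.005) in KPR_restored minus that in KPR-, and a gene was called higher or lower at 0.5 or more either way. Genes that averaged 1 FPKM or more were counted. From the steps of low FPKM values the depth was about 21.8 M fragments in KPR- and 22.6 M in KPR_restored, and the 95% counting intervals (exact Clopper-Pearson limits) computed from it cover counting error only. *Runx3* had 0.348 FPKM in KPR- and 0.349 FPKM in KPR_restored, about 28 and 29 fragments. The difference was 0.01 (-0.80 to 0.81 by counting), so a higher *Runx3* level, which the labels would lead to, was not seen in the library labelled KPR_restored. A value per gene does not separate transcripts of the restored allele from others. KPR- and KPR_restored therefore name the libraries so labelled in every difference below. Of the markers, the 5 epithelial genes (*Epcam*, *Cdh1*, *Krt8*, *Krt18*, *Krt19*) ranged from 91.6 to 1931 FPKM, while 4 of the 5 lung epithelial genes, among them *Sftpc* and *Scgb1a1*, were listed at 0 in both libraries and *Nkx2-1* did not pass 0.0444 FPKM. *Vim* was high in both (1777 and 1464 FPKM), and the blood cell markers *Ptprc*, *Lyz2* and *Cd3e* were at 0.00892 FPKM or less. The macrophage gene *Cd68* (3.08 and 6.78 FPKM) and the endothelial gene *Kdr* (1.10 and 2.05 FPKM) were higher and the fibroblast gene *Col1a1* (12.2 and 4.21 FPKM) lower in KPR_restored. The other endothelial markers (*Pecam1*, *Cdh5*) and the mesenchymal markers *Col3a1*, *Pdgfra* and *Pdgfrb* were at 0.363 FPKM or less in both libraries. The part of *Cd68*, *Kdr* and *Col1a1* in the results was not tested.

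The enzymes went in different directions in the KPR_restored library. Of the 34 genes, 32 averaged 1 FPKM or more, and 13 of these (40.6%) were higher by 0.5 or more, against 12.1% of all 11231 genes at this level. The higher genes included *Psat1* and *Psph* of serine synthesis, *Shmt2*, *Mthfd2* and *Aldh1l2* of mitochondrial folate metabolism, *Asns*, *Aldh18a1* and *Pycr1* of proline synthesis, and *Gpt2*. A difference of 1 or more was found for 10 of the 32 (31.2%), against 2.89% of all genes. Lower by 0.5 or more were 4 genes (12.5%), *Mthfd1*, *Ahcy*, *Mat2a* and *Gldc*, against 9.29% of all genes, a share near the background. The other 15 lay within 0.5 of 0. The median difference of the 32 genes was 0.15, beside 0.0086 for all genes, whose quartiles were -0.23 and 0.27. The counting interval left out 0 for 29 of the 32 genes (90.6%), against 67.3% of the 11138 genes with an estimate, so most of these differences exceed counting error.

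**Figure D1:**
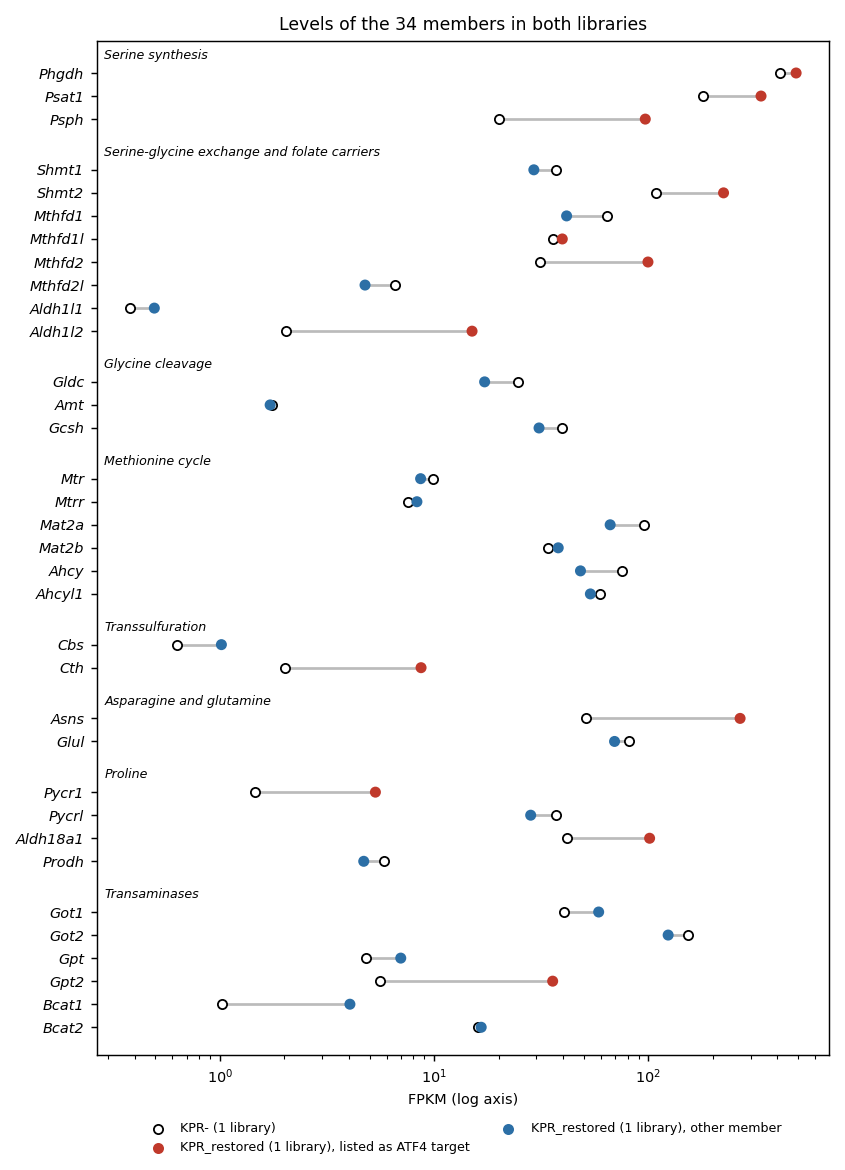
FPKM (log axis) of the 34 enzyme genes by role, 1 library per condition. Open circles are KPR- and filled circles KPR_restored, red for the 12 genes commonly listed as Atf4 targets and blue for the others. This division was written with earlier results of these data known. The red circles lie to the right of their open circles, by little for *Phgdh* and *Mthfd1l*.

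**Figure D2:**
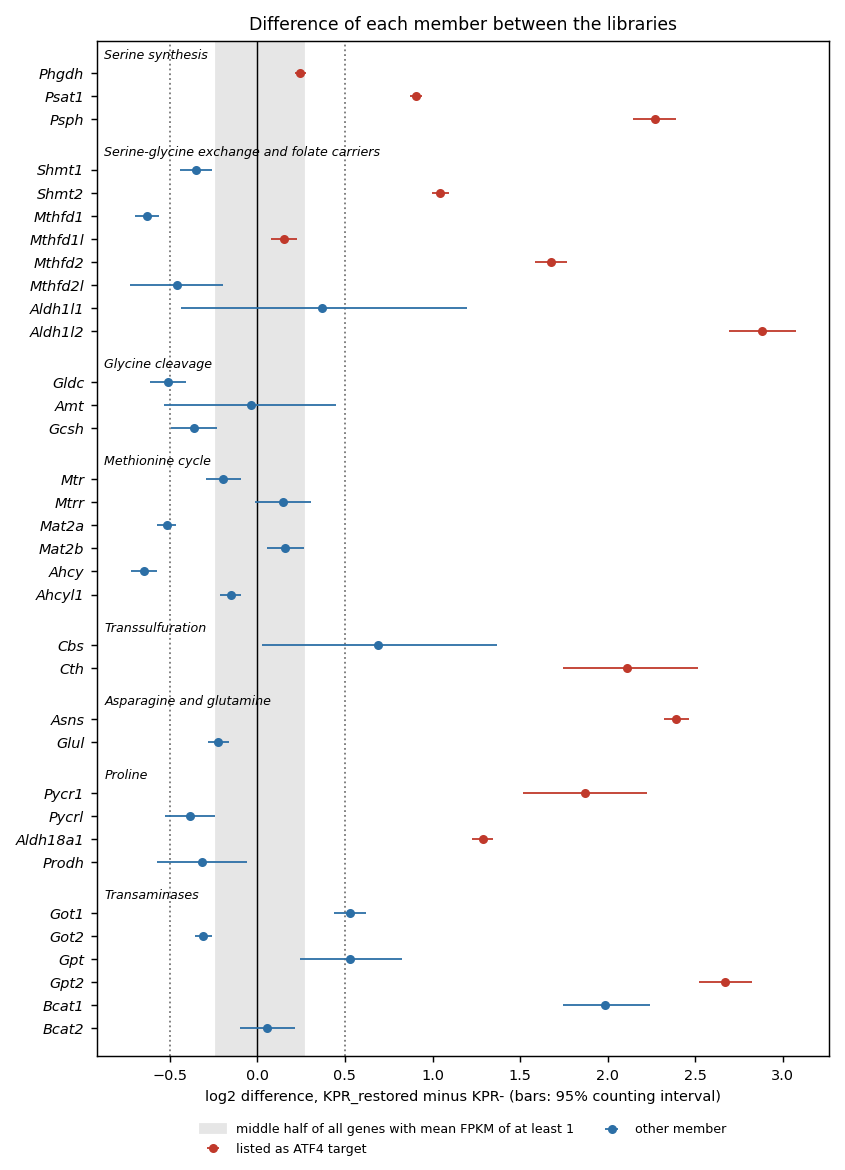
Difference of each gene on the log2 scale (KPR_restored minus KPR-) with its 95% counting interval. The grey band holds the middle 50% of all genes that averaged 1 FPKM or more, and dotted lines mark 0.5 and -0.5. *Aldh1l2*, *Gpt2*, *Asns* and *Psph* lie farthest to the right, while *Mthfd1* and *Ahcy* lie farthest to the left.

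Since *Atf4* (chromosome 15, 80255184 to 80257541, plus strand) had 145 FPKM in KPR- and 446 FPKM in KPR_restored, a difference of 1.62 (1.58 to 1.67), the promoters were searched for the core of the site bound by Atf4 with C/EBP proteins (TGATGNAA) and for the core of the RUNX site (TGNGGT), on both strands, in windows from 250 bases before to 50 bases after each RefSeq start on GRCm38.p6. Of the 34 genes, 30 had such windows, 36 in all. The Atf4 core was found in 3 of the 36 windows (8.33%), against 3.97% of 32851 windows of all genes, and the RUNX core in 12 (33.3%), against 45.8%. Overlap with other motifs was not considered, and a match is a description of letters, not of binding. The Atf4 matches lay near the starts of *Asns*, *Pycr1* and *Got1*, enzymes of asparagine, proline and aspartate synthesis. *Pycr1* and *Got1* held the RUNX core too. The stretches around the Atf4 matches are shown with the match in capitals, read 5′ to 3′ on the strand of the gene. In the stretch of *Asns* (chr6:7693214-7693243), the match starts 23 bases before the RefSeq start and 22 bases after the start of the gene in GENCODE M21. In the stretch of *Pycr1* (chr11:120643818-120643877), the match starts 103 bases before the RefSeq start. In that of *Got1* (chr19:43524674-43524733), the match starts 102 bases before the RefSeq start and is on the other strand.
Asns: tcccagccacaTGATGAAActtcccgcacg
Pycr1: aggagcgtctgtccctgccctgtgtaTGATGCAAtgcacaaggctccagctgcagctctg
Got1: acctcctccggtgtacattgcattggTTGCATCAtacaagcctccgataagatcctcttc

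The 3 genes of serine synthesis all had a difference above 0, *Psat1* and *Psph* past 0.5, and the later the step, the larger was the difference. Among all genes that averaged 1 FPKM or more, 49.0% had a difference below 0. *Phgdh*, which oxidizes 3-phosphoglycerate in the first step, lies on chromosome 3 of GRCm38 (mm10) from 98313170 to 98339990 (minus strand). It had 412 FPKM in KPR- and 489 FPKM in KPR_restored, a log2 difference of 0.25 (0.21 to 0.28 by counting), below 0.5. It was the most abundant of the 34 genes in both libraries. *Psat1*, the transaminase of the second step (chromosome 19, 15904678 to 15947337, minus strand), had 179 and 335 FPKM, a difference of 0.91 (0.87 to 0.94). *Psph*, the phosphatase that releases serine (chromosome 5, 129765558 to 129787449, minus strand), had 20.1 FPKM in KPR- and 96.7 FPKM in KPR_restored. This difference of 2.27 (2.15 to 2.39), a 4.81-fold higher level, was above that of 99.7% of all genes. The gene with the lowest level of the pathway in KPR- thus had the largest difference.

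Among the folate enzymes, the mitochondrial *Shmt2*, *Mthfd2* and *Aldh1l2* were higher and the cytosolic *Mthfd1* was lower, while the mitochondrial *Mthfd1l* and *Mthfd2l* lay within 0.5 of 0. *Shmt2*, which splits serine into glycine and a folate-bound carbon in mitochondria (chromosome 10, 127517123 to 127522444, minus strand), had 109 FPKM in KPR- and 224 FPKM in KPR_restored, a difference of 1.04 (0.99 to 1.09). *Shmt1*, its cytosolic counterpart, had 37.2 and 29.2 FPKM, a difference of -0.35 (-0.44 to -0.26). The ratio of *Shmt2* to *Shmt1* was 2.92 in KPR- and 7.68 in KPR_restored.

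*Mthfd2*, the mitochondrial dehydrogenase and cyclohydrolase that is abundant in embryonic and tumor cells (chromosome 6, 83305691 to 83325908, minus strand), had 31.1 and 99.5 FPKM, a difference of 1.68 (1.59 to 1.77). Its paralog *Mthfd2l* went the other way, with 6.53 and 4.76 FPKM and a difference of -0.46 (-0.73 to -0.20). *Mthfd1l*, which makes formate for export from mitochondria, had 35.7 and 39.6 FPKM, a difference of only 0.15 (0.075 to 0.23). *Mthfd1*, the trifunctional enzyme that takes up formate in the cytosol (chromosome 12, 76255298 to 76319803, plus strand), had 64.3 FPKM in KPR- and 41.5 FPKM in KPR_restored. With a difference of -0.63 (-0.70 to -0.56) it was the second lowest of the 34 genes, so *Mthfd1* and *Mthfd1l* were at almost the same level in KPR_restored.

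*Aldh1l2*, the mitochondrial enzyme that oxidizes formyl-folate to carbon dioxide with formation of NADPH (chromosome 10, 83487450 to 83534140, minus strand), had the largest difference of the 34 genes. It had 2.03 FPKM in KPR- and 15.0 FPKM in KPR_restored, a 7.37-fold higher level and a log2 difference of 2.88 (2.69 to 3.08). The cytosolic *Aldh1l1* was hardly expressed, with 0.382 and 0.494 FPKM from about 24 and 32 fragments, and its interval of -0.44 to 1.20 holds 0. Of the 5 mitochondrial folate enzymes, 3 were higher and 0 lower by 0.5 or more, with a median of 1.04, beside 12.1% and 9.29% of all genes. Of the 2 cytosolic ones that passed the filter, 0 were higher and 1 was lower.

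**Figure D3:**
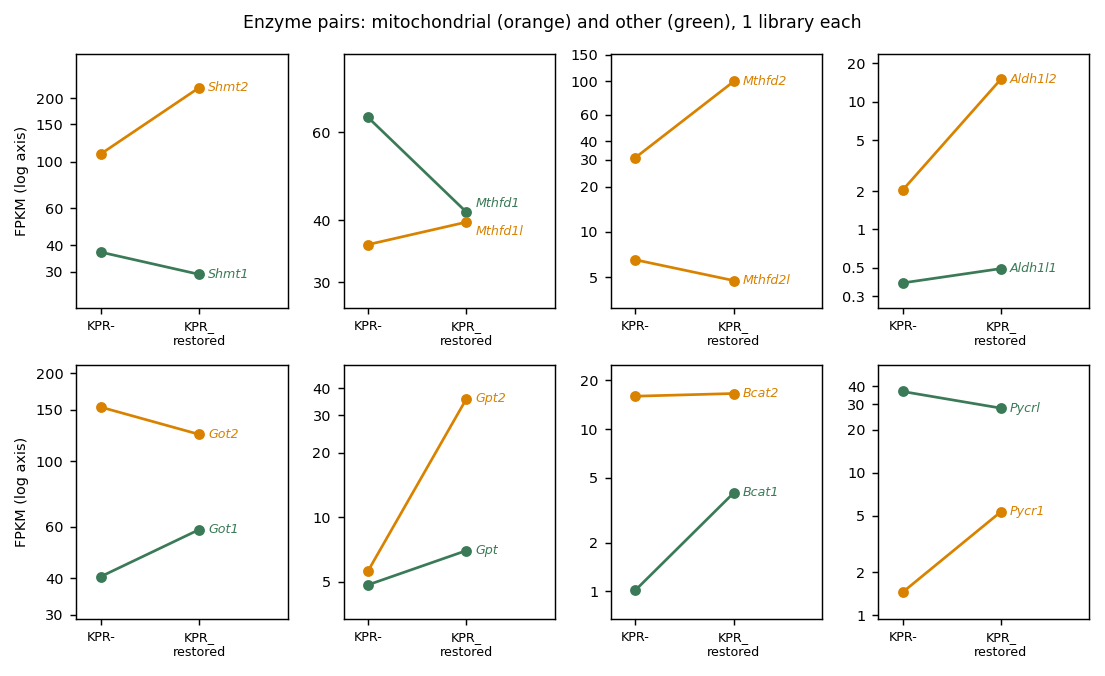
FPKM (log axis) in the KPR- and KPR_restored libraries for 8 pairs of enzymes that catalyze like reactions, in orange where the protein works in mitochondria and in green where it does not. Lines run apart for *Shmt2* and *Shmt1* and for *Mthfd2* and *Mthfd2l*, and toward each other for *Got1* and *Got2* and for *Pycr1* and *Pycrl*.

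The glycine cleavage system, which breaks glycine down to a folate-bound carbon in mitochondria, was not among the higher genes. *Gldc*, its decarboxylase, had 24.5 FPKM in KPR- and 17.2 FPKM in KPR_restored, a difference of -0.51 (-0.61 to -0.41), which was -0.49 with a pseudocount of 1 and also with the trend over transcript length subtracted. *Gcsh*, the lipoyl carrier protein, had 39.6 and 30.9 FPKM, a difference of -0.36 (-0.49 to -0.23). *Amt*, the aminomethyltransferase, stood at 1.76 and 1.72 FPKM, with about 72 fragments in each library and an interval of -0.53 to 0.45. Of the mitochondrial enzymes of glycine, *Shmt2* was thus higher and *Gldc* lower.

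Of the 6 methionine cycle genes, 2 were lower and 0 higher by 0.5 or more, beside 9.29% and 12.1% of all genes, and the median was -0.17. *Ahcy*, which hydrolyzes S-adenosylhomocysteine (chromosome 2, 155059310 to 155074497, minus strand), had 75.5 FPKM in KPR- and 48.2 FPKM in KPR_restored. Its difference of -0.65 (-0.72 to -0.58) was the lowest of the 34 genes. *Mat2a*, the catalytic subunit of S-adenosylmethionine synthetase outside the liver, had 94.9 and 66.3 FPKM, a difference of -0.52 (-0.57 to -0.46). Its regulatory subunit *Mat2b* had 33.9 and 37.9 FPKM, a difference of 0.16 (0.055 to 0.27), so the subunits differed in direction. *Mtr*, methionine synthase, had 9.89 and 8.64 FPKM, a difference of -0.19 (-0.29 to -0.096) that was 0.029 with the length trend subtracted. *Mtrr*, which reactivates it, had 7.51 and 8.31 FPKM with an interval that holds 0. *Ahcyl1*, an Ahcy-like protein, had 59.6 and 53.6 FPKM, a difference of -0.15.

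Transsulfuration was low in KPR- at both steps. *Cth*, which releases cysteine from cystathionine (chromosome 3, 157894248 to 157925077, minus strand), had 2.01 FPKM in KPR- and 8.69 FPKM in KPR_restored, a difference of 2.11 (1.74 to 2.52). *Cbs*, which makes cystathionine, had 0.629 and 1.02 FPKM from about 32 and 53 fragments. Its difference of 0.69 (0.025 to 1.37) is not counted, since its mean FPKM was under 1.

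*Asns*, which makes asparagine from aspartate and glutamine, had the largest gain in FPKM of the 34 genes. It lies on chromosome 6 from 7675169 to 7693254 (minus strand) and had 51.0 FPKM in KPR- and 268 FPKM in KPR_restored, a 5.25-fold higher level and a log2 difference of 2.39 (2.32 to 2.46). About 1993 and 10763 fragments stood behind these values, and its promoter holds the Atf4 core printed above. *Glul*, glutamine synthetase, had 81.1 and 69.5 FPKM, a difference of -0.22 (-0.28 to -0.16). In KPR- *Glul* was the higher of these 2 amide-forming enzymes, and in KPR_restored *Asns* was.

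In proline synthesis, *Aldh18a1*, which makes the common precursor pyrroline-5-carboxylate from glutamate (chromosome 19, 40550257 to 40588463, minus strand), had 41.5 FPKM in KPR- and 101 FPKM in KPR_restored, a difference of 1.29 (1.22 to 1.35). *Pycr1*, the mitochondrial reductase of the last step (chromosome 11, 120635712 to 120643769, minus strand), had 1.45 and 5.32 FPKM, a difference of 1.87 (1.52 to 2.22). *Pycrl*, a cytosolic reductase of the same step, was the more abundant of both in each library, with 36.9 and 28.2 FPKM and a difference of -0.39 (-0.53 to -0.24). *Prodh*, which degrades proline, had 5.84 and 4.69 FPKM, a difference of -0.32 (-0.58 to -0.059). The synthetic *Aldh18a1* and *Pycr1* were thus higher while the degrading enzyme was not.

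Of the 6 transaminases, 4 were higher and 0 lower by 0.5 or more, beside 12.1% and 9.29% of all genes, and *Got1* and *Gpt* were no longer past 0.5 with the length trend subtracted. *Gpt2*, the mitochondrial alanine transaminase (chromosome 8, 85492576 to 85527560, plus strand), had 5.61 FPKM in KPR- and 35.7 FPKM in KPR_restored, a 6.36-fold higher level and a log2 difference of 2.67 (2.52 to 2.82). The cytosolic *Gpt* had 4.83 and 6.98 FPKM, a difference of 0.53 (0.24 to 0.82), which was 0.44 with the length trend subtracted. In KPR- the levels of this pair were near each other, with a *Gpt2* to *Gpt* ratio of 1.16, and in KPR_restored the ratio was 5.12.

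*Bcat1*, the cytosolic transaminase of leucine, isoleucine and valine (chromosome 6, 144993835 to 145076184, minus strand), had 1.02 and 4.04 FPKM, a difference of 1.99 (1.74 to 2.24). Its mitochondrial counterpart *Bcat2* had 15.95 and 16.6 FPKM with an interval of -0.10 to 0.21. For the aspartate transaminases, the cytosolic *Got1* had 40.5 and 58.6 FPKM, a difference of 0.53 (0.44 to 0.62), which was 0.43 with the length trend subtracted. The mitochondrial *Got2* had 153 and 124 FPKM, a difference of -0.31 (-0.36 to -0.26). The cytosolic member of the pair had the larger difference for *Got1* and *Bcat1* and the mitochondrial one for *Gpt2*.

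The members were also divided by whether they are commonly listed as Atf4 targets. This division was written with earlier results of these data known and is not independent evidence of a direction. Of the 12 listed genes (*Phgdh*, *Psat1*, *Psph*, *Shmt2*, *Mthfd1l*, *Mthfd2*, *Aldh1l2*, *Cth*, *Asns*, *Pycr1*, *Aldh18a1*, *Gpt2*), 12 had a difference above 0, 10 of them at 0.5 or more, with a median of 1.77 and a range from 0.15 to 2.88. Of the other 20 genes that passed the filter, 14 had a difference below 0, and the median was -0.27. Among all genes that averaged 1 FPKM or more, 49.0% had a difference below 0. Higher by 0.5 or more were 83.3% of the 12 listed genes and 15.0% of the other 20 (*Bcat1*, *Got1* and *Gpt*), the latter near the 12.1% of all genes. Among the 7 listed mitochondrial genes the median was 1.68, and among the 7 mitochondrial genes not listed it was -0.32. Of the 10 listed genes with a promoter window, 2 held the Atf4 core, *Asns* and *Pycr1*, and 5 held the RUNX core. The cores were found in 3.97% and 45.8% of the windows of all genes. These shares are per window, and a gene can have more than 1 window, so the counts per gene have no exact background. Whether Atf4 protein accounts for these levels was not tested.

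**Figure D4:**
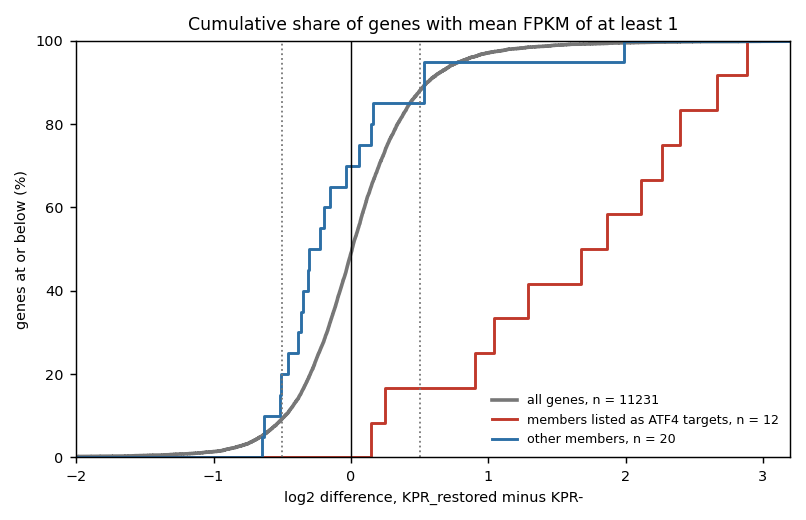
Cumulative share (%) of genes at or below each log2 difference (KPR_restored minus KPR-) among genes that averaged 1 FPKM or more. The line of the 12 genes listed as Atf4 targets lies wholly to the right of 0, while the line of the other 20 enzyme genes lies to the left of that of all 11231 genes around 0.

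Other genes of these pathways did not share the higher levels. Of 54 such genes, 36 passed the filter, and 3 were higher (8.33%) and 5 lower (13.9%) by 0.5 or more, near the background shares of 12.1% and 9.29%. Only 1 was higher with the length trend subtracted or after scaling to the same upper quartile. Their median was -0.19, and 27 of the 36 had a difference below 0, beside 49.0% of all genes that averaged 1 FPKM or more. Of these 54 genes, 11 were listed at 0 in both libraries, among them *Mat1a* and *Bhmt*, methionine enzymes of the liver. *Amd1*, which makes the propylamine donor of polyamines, was listed at 0.0166 and 0.0165 FPKM, but its near-identical copy *Amd2* can share its reads, so its level is uncertain.

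In folate metabolism, *Slc25a32*, the mitochondrial folate carrier, had 8.25 FPKM in KPR- and 4.77 FPKM in KPR_restored, a difference of -0.79 (-0.94 to -0.64). *Gart*, a purine synthesis enzyme that uses formyl-folate, had 61.3 and 41.3 FPKM, a difference of -0.57. The median of the 11 expressed genes of this group was -0.37, and *Gart*, which works in the cytosol, was lower as *Mthfd1* was.

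Around methionine and polyamines, *Enoph1* of the methionine salvage pathway had 32.2 and 21.8 FPKM, a difference of -0.56, and *Sms*, spermine synthase, had 31.1 and 21.4 FPKM, a difference of -0.54. *Odc1*, ornithine decarboxylase, had 176 and 252 FPKM, a difference of 0.52. Near proline, *Asl*, argininosuccinate lyase, had 27.9 and 39.9 FPKM, a difference of 0.52. Neither *Odc1* nor *Asl* passed 0.5 with the length trend subtracted or after scaling to the same upper quartile. The 8 expressed genes of glutamate, asparagine and branched-chain breakdown all lay within 0.5 of 0, among them *Glud1*, glutamate dehydrogenase (99.3 and 78.3 FPKM). Only 12.1% of all genes were higher and 9.29% lower by 0.5 or more, so most genes lay within 0.5 too.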

How the data were processed

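mRNA sequencing of 1 KPR- and 1 KPR_restored library was used. The authors selected poly(A) RNA, made directional libraries, trimmed the paired-end reads and mapped them using TopHat. They deposited FPKM values estimated using Cufflinks, 1 per gene and library. The paper also names a geometric normalization using edgeR, and whether the deposited values carry it was not examined. The labels name mm10, and the annotation and tool versions are not given in the sources used here. Trimming, multi-mapped reads and merging of isoforms into 1 value per gene can move FPKM.

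Differences were computed as log2(FPKM + 0.005), which understates changes of genes near the pseudocount. Of the 23183 symbols, 22148 matched GENCODE M21 directly and 654 by a synonym. Depth was fitted to FPKM of genes with a single transcript of at least 600 bases, at 0.5 to 5.5 fragments. Of these, 80.2% of 536 values in KPR- and 81.9% of 548 in KPR_restored were whole to within 0.1, beside 20% for an even spread. Fragments were estimated with the longest transcript of each gene with a RefSeq counterpart, an upper estimate. The depth fit and intervals were tested on simulated libraries.

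The members, lists and thresholds were chosen with earlier results of these data known. All members are named, and of the other pathway genes at most the 3 with the largest differences past 0.5 in each direction per group, a few of which are not reported here. *Glud1*, *Mat1a*, *Bhmt* and *Amd1* were named after their values were seen. Alternatives were other pseudocounts, filters, scalings and thresholds, a shorter transcript and, chosen after seeing the data, removal of the length trend. Scripts ran under Python 3.11.15 with scipy 1.17.1, pandas 2.3.3, numpy 2.4.6 and, for figures, matplotlib 3.10.9.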

Additional observations from a re-analysis of the deposited data

How the results depend on the processing

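No paired analysis was possible because each condition has 1 library, and for the same reason no library could be left out. Subtraction of the length trend was chosen after seeing the data. Of 204 values of single enzyme genes under other pseudocounts, scalings and without this trend, 2 changed sign, *Mtr* (0.029) and *Bcat2* (-0.047), both without the trend. The threshold was crossed 7 times, by *Gldc* (-0.49), *Gpt* (0.45) and *Cbs* (0.31) with a pseudocount of 1, and by *Gldc*, *Gpt*, *Got1* and *Mthfd2l* (-0.50) without the trend. The number of higher enzyme genes ran from 10 to 14 and of lower ones from 3 to 4, except with a threshold of 1, where 0 were lower. The number of higher genes among the other pathway genes was 5 with no filter on FPKM and 1 after scaling to the same upper quartile, without the trend and with a threshold of 1, where 0 were lower. The median of the 12 genes listed as Atf4 targets was 1.51 with a pseudocount of 1, which shrinks differences of low genes. Counting error limits *Aldh1l1*, *Cbs* and *Amt* most, and variation between cultures was not measured for any gene.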
